A study of Mus musculus with 4 samples.

Results

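The genes described here are 41 mouse genes of the interferon response and of nucleic acid sensing, measured in E14tg2a embryonic stem (ES) cells with and without siRNA against Rif1. They were taken as every non-control probe of the array whose gene name equalled 1 of the 41 symbols, which gave 57 probes of 39429 on the array and 41 of its 30199 gene names. Of the 41 genes, 14 were read by more than 1 probe and 27 by a single probe. By role they comprised 6 sensors and adaptors, 7 enzymes that act on nucleic acids, 1 ligand, 6 transcription factors, 15 other interferon-stimulated genes and 6 genes of antigen presentation. The symbols are those of the array design, and 1 of them, Tmem173, is Sting1 in the current RefSeq table.

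Cells recognise misplaced or viral nucleic acids through receptors such as RIG-I (the product of Ddx58) and MDA5 (Ifih1) for RNA in the cytosol, TLR3 (Tlr3) for double-stranded RNA in endosomes, and the cGAS-STING route for DNA. The receptors signal through adaptors to the transcription factors IRF3 and IRF7, which switch on interferon beta. Secreted interferon then acts through a complex that holds STAT2 and IRF9 at a promoter element called the ISRE and raises a large set of antiviral genes. Mouse ES cells are known for a weak response of this kind, together with a basal expression of some of the antiviral genes, and a transfected siRNA duplex is itself a short double-stranded RNA.

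E14tg2a is an established mouse ES cell line, grown here in serum medium with leukemia inhibitory factor (LIF). The 4 samples were untreated cells, for which the labels give no harvest time, cells harvested 72 h after control siRNA, and cells harvested 48 h and 72 h after siRNA against Rif1, for which the study's methods give the duplexes mRif1#2 and NC#1 together. Rif1 is a nuclear protein known for its part in the timing of DNA replication. There was 1 one-colour array for each condition, so no difference between conditions has a replicate check, no test was made, and transfection, time in culture and array cannot be told apart. These were bulk RNA samples, in which fewer cells of a type and less RNA per cell cannot be told apart.

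Values are given as a level, which is a probe's processed signal divided by the 75th percentile of the signals on its array, and differences are on the log2 scale. A level is comparable between arrays for 1 probe and not between probes. Spots that repeat the same probe on 1 array had a median SD of 0.14 to 0.17 on the log2 scale for levels under 0.1, of 0.06 to 0.08 for levels of 0.1 to 1, and of 0.05 for levels over 1, and this is the only error the arrays measure. The percent of spots counted as well above background was 58.8 (untreated), 62.8 (control siRNA), 71.5 (Rif1 siRNA, 48 h) and 74.1 (Rif1 siRNA, 72 h), and the lowest level so counted was 0.0236, 0.0159, 0.00779 and 0.00543 in the same order. The single Rif1 probe had levels of 5.55, 5.42, 2.15 and 4.15, so the log2 difference of the targeted transcript from control siRNA was -1.34 at 48 h and -0.39 at 72 h. All 8 ES cell markers were well above background on all 4 arrays, and the probes of 8 genes of the 2-cell-like state had a median log2 difference of 4.44 at 72 h against control siRNA and of 1.04 with control siRNA against untreated cells. The summed level of 15 probes for blood and immune markers was 6.72, 6.92, 6.18 and 5.63 and that of 7 fibroblast probes 4.23, 3.81, 4.44 and 4.46, sums that a few bright probes set. No array had Itgax, Lyz2, Postn or Lum well above background. Cd3e, Cd68, Csf1r and Itgam of the blood and immune list had a probe well above background on all 4 arrays. So did Col1a1, Col1a2, Thy1 and Dcn of the fibroblast list. Probe by probe, the 9 measured blood and immune probes had a median log2 difference from control siRNA of -0.18 at 48 h and -0.32 at 72 h, with the highest at -0.07 and -0.11, and the 4 measured fibroblast probes had medians of 0.42 and 0.73. The fibroblast markers Col1a1, Col1a2 and Dcn were each higher at 72 h of Rif1 siRNA than with control siRNA (0.82, 0.82 and 0.65), which made 3 of the list's 5 probes that passed the filter over 1.5-fold higher. The part of either list in the differences below was not tested.

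Transfected samples received siRNA duplexes, which are double-stranded RNA, so the duplexes that the study's list gives for Rif1 and the likely control are shown. Each strand carries 19 ribonucleotides before its overhang, written 5′ to 3′ from the study's oligonucleotide list. The entry named universal is the only duplex there that does not carry the name of Rif1, and the sources used here do not state outright that it is the control.
universal sense: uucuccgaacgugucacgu
universal antisense: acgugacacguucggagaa
mRif1#2 sense: gaaggagccucuagggaaa
mRif1#2 antisense: uuucccuagaggcuccuuc
mRif1NC#1 sense: guguucaaccuuaaaugca
mRif1NC#1 antisense: ugcauuuaagguugaacac
Of the 19 bases, 10 are G or C in the universal and mRif1#2 duplexes and 7 in mRif1NC#1.

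The promoters of the genes were searched for the core letters of the ISRE (GAAA, a pair of any bases, then GAAA) on both strands, in RefSeq windows from 250 bases before to 50 bases after each start (build GRCm38.p6). Windows were found for 37 of the 41 genes, and 16 of them held the letters (43.2%), beside 3.99% of all 27025 genes with a window. The 16 genes were Apobec3, B2m, Bst2, Ddx58, Eif2ak2, Ifih1, Ifit1, Ifit3, Ifitm2, Ifitm3, Irf2, Irgm1, Isg15, Oas1a, Rsad2 and Stat2. A match describes the letters only. The lines below show the stretch around the matches for 6 of the genes with a match before the start, picked after their values were seen, read along each gene's own strand, with the matches in capitals, and a match on the other strand reads TTTC, a pair of any bases, then TTTC. Neighbouring matches overlap in Isg15, Bst2 and Irgm1. Ifit1 and Ifit3 are shown because they did not reach a level well above background on the untreated and control arrays although both windows hold the letters, and the others because they did.
Isg15 (chr4:156200863-156200908, minus strand): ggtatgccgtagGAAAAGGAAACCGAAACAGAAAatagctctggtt
Ifit1 (chr19:34640773-34640825, plus strand): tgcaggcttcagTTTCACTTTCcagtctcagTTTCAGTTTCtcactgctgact
Ifit3 (chr19:34583361-34583428, plus strand): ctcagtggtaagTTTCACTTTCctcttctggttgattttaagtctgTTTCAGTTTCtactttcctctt
Bst2 (chr8:71537575-71537614, minus strand): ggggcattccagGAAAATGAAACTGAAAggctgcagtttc
Irgm1 (chr11:48871423-48871462, minus strand): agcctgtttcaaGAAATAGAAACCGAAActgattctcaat
B2m (chr2:122147536-122147569, plus strand): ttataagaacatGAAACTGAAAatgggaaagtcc

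Most of the genes were detected, whereas several of the classical interferon-induced genes were not. A probe well above background on all 4 arrays was found for 29 of the 41 genes, on some arrays for 7, and on none for 5. The 5 were Tlr3, Irf2, Irf7, Ifit1 and Mx1. The 7 were Ifih1, Oasl2, Ifnb1, Usp18, Ifit3 and Rsad2, detected on 1 or both Rif1 siRNA arrays only, and Tap1, detected on all arrays but the untreated one. Counted as probes, 41 of 57 were well above background on all 4 arrays, 8 on some and 8 on none. Of all 39429 probes, 22518 were well above background on all 4 arrays. The untreated array had 41 of the member probes, the control siRNA array 42, and the Rif1 siRNA arrays 46 (48 h) and 48 (72 h). The number of detected member probes followed the order of the share of all spots that were well above background on each array. Of the 6 genes detected on Rif1 siRNA arrays only, all but Oasl2 were detected at levels under 0.0159, the lowest counted on the control array. Oasl2 read higher on the control array (0.0212) than on the Rif1 siRNA arrays (0.0181 and 0.0193). The part of that share in the detection of the 6 genes was not tested. The plot of levels by probe shows which values lie above background.

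**Figure D1:**
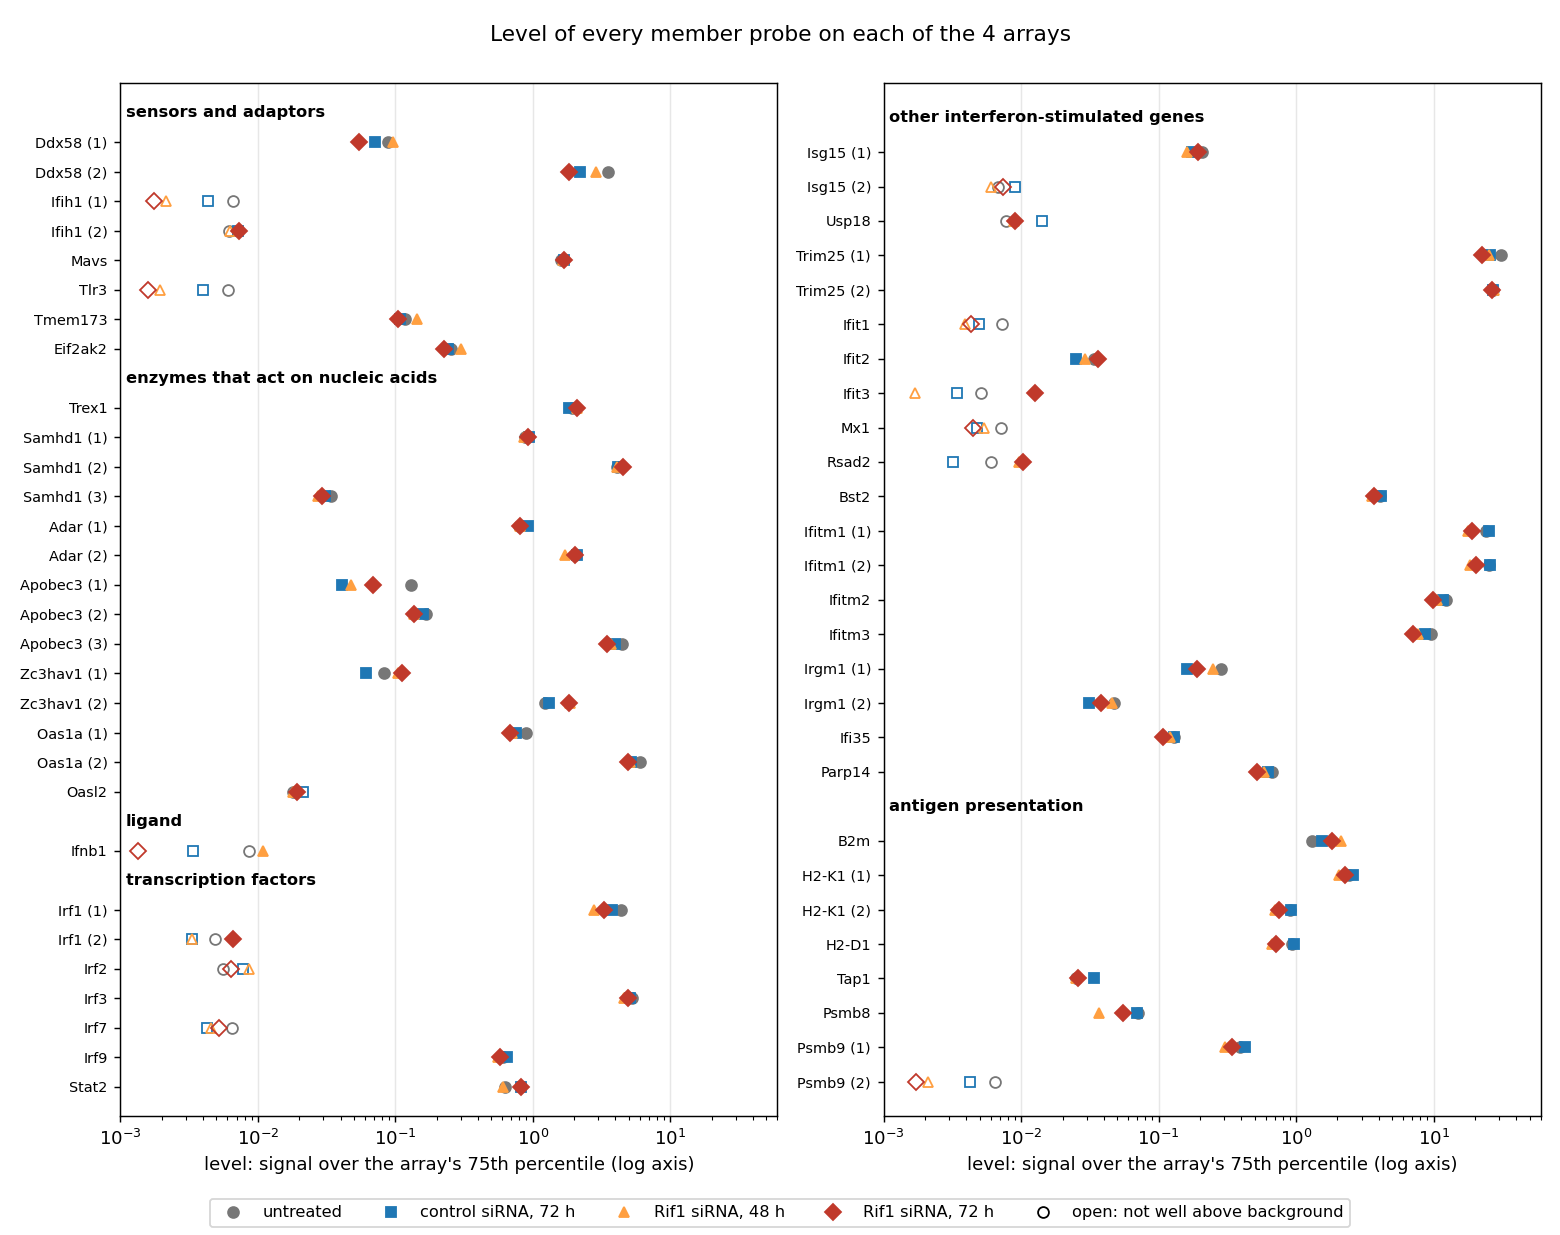
Level of each of the 57 member probes (signal over the array's 75th percentile, log axis) on the 4 arrays, grouped by role, with filled symbols for values well above background and open symbols for values that are not. Numbers in parentheses count the probes of a gene, positions along the axis are to be read within a row only, and 41 probes are filled on all 4 arrays.

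Rif1 siRNA at 72 h was compared with control siRNA at 72 h to ask whether the interferon genes differ after Rif1 siRNA, although the Rif1 transcript itself was little lower at this time (-0.39). Of the genes, 30 had a probe well above background on both arrays, and none of these differed by more than 2-fold in either direction, while the other 11 have no measured difference. The largest differences were Zc3hav1 higher by 0.87 on 1 of its 2 probes (0.49 on the other), Apobec3 higher by 0.74 on 1 of its 3 probes, Ifit2 higher by 0.54, and H2-D1 lower (-0.43). The first 3 were on dim probes and came to 0.44, 0.32 and 0.05, all under 1.5-fold, with normexp background correction, a model of the background in place of the processed signal. A filter on dim probes, which asked for detection on at least 2 arrays, was passed by 45 of the 57 member probes and by 27771 probes in all. The 2-fold threshold was passed by 0 of the 45 in each direction, beside 2.82% of all probes higher and 1.00% lower. At 1.5-fold, 2 of 45 (4.44%) were higher, beside 5.50% of all probes, and 0 were lower, beside 2.36%. The 42 member probes measured on both arrays had a median log2 difference of -0.16 with a range from -0.43 to 0.87, and the 24308 such probes in all had a median of -0.07. Of the 42, 31 were below 0, as were 15337 of the 24308.

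The earlier harvest of Rif1 siRNA, at 48 h, gave 0 of 45 member probes past 2-fold, beside 3.16% of all probes higher and 1.19% lower. The genes furthest from the control siRNA array were Psmb8 (-0.90), Zc3hav1 (0.77) and Irgm1 (0.63). Psmb8 came to -0.58 with normexp correction and to -1.01, past 2-fold, with quantile normalization, and Zc3hav1 to 0.39 with normexp. At 1.5-fold, 2 probes (4.44%), of Zc3hav1 and Irgm1, were higher, beside 6.81% of all probes, and 1 (2.22%) was lower, beside 3.29%. The Zc3hav1 and Psmb8 probes were under 1.5-fold with normexp correction, and the Irgm1 probe with it (0.50) and with quantile normalization (0.54). The median of the 42 measured member probes was -0.11, that of all probes -0.07. This comparison used the same control array as that at 72 h, and its harvest times differ.

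Control siRNA was compared with untreated cells, a pair that differs in transfection and in the array, and may differ in time in culture. Only 1 member probe passed 2-fold, a probe of Apobec3 that was lower with control siRNA, and none was higher. All probes gave 1.02% lower and 0.583% higher. At 1.5-fold, 4 of 45 member probes (8.89%) were lower, 1 of Apobec3, 1 of Ddx58 and 2 of Irgm1, beside 2.33% of all probes, and 0 were higher, beside 1.76%. Of these, 1 Irgm1 probe (-0.60) was under 1.5-fold with normexp correction (-0.32) and with quantile normalization (-0.54). The median of the 41 measured member probes was -0.06, and that of all probes -0.01. Ifit1, Ifit3, Mx1, Usp18 and Rsad2, which interferon induces, were dim in untreated cells, and none of these 5 reached a level well above background with control siRNA. Tap1 did reach one.

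Between 48 h and 72 h of Rif1 siRNA, 0 of 45 member probes passed 2-fold, beside 0.486% of all probes higher and 0.677% lower. At 1.5-fold, both probes of Ddx58 (4.44% of the member probes) were lower at 72 h, beside 2.29% of all probes, and 0 were higher, beside 1.85%. With normexp correction 1 of these (-0.52) was under 1.5-fold. The median of the 45 member probes was 0.05 and that of all probes -0.01. The histograms set the member probes beside all probes in the 4 comparisons.

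**Figure D2:**
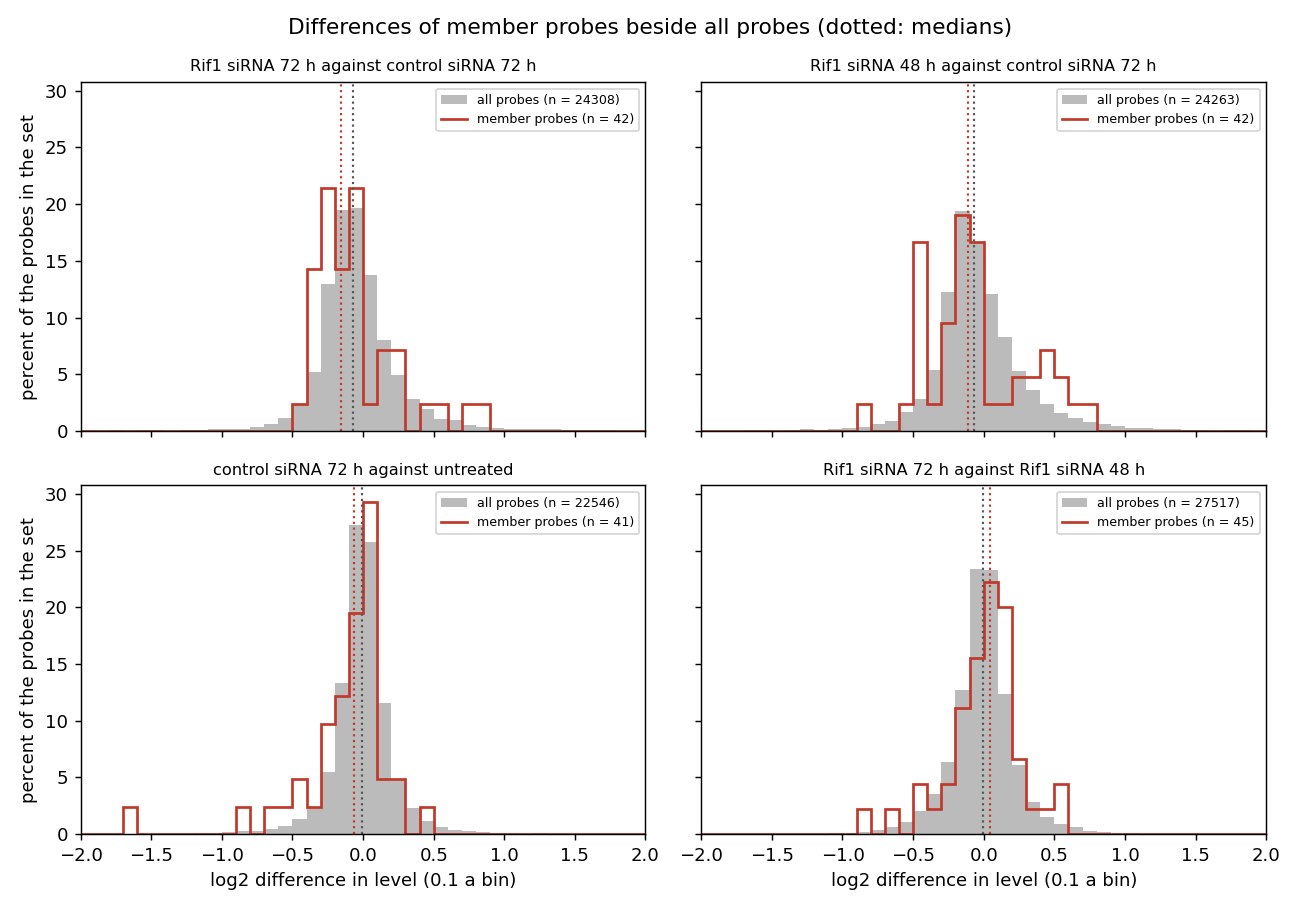
Histograms of log2 differences in level, as a percent of the probes in each set, for member probes (red outline) and all probes that passed the filter (grey) in 4 comparisons, with dotted lines at the medians and values beyond 2 in either direction not drawn. Member medians were -0.16, -0.11, -0.06 and 0.05, beside -0.07, -0.07, -0.01 and -0.01 for all probes.

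Among the sensors and adaptors, 4 of 6 genes were detected on all arrays. Ddx58, which encodes RIG-I, a helicase that binds RNA with a 5′ triphosphate, was the one that varied most. Its probe at chr4:40151893-40151952 (mm9, as are all probe positions) had levels of 3.50 (untreated), 2.20 (control siRNA), 2.90 (Rif1 siRNA, 48 h) and 1.84 (Rif1 siRNA, 72 h). The second probe, at chr4:40151133-40151192, had levels of 0.0887, 0.0708, 0.0956 and 0.0543. On each probe both 72 h arrays lay below the untreated and the 48 h array. This order was found for 13.7% of all probes well above background on all 4 arrays. Against control siRNA, harvested at 72 h only, the probes were higher by 0.40 and 0.43 at 48 h and lower at 72 h (-0.26 and -0.38). The direction thus turned between the harvests on both. The second probe is dim, and its difference at 48 h came to 0.18 with normexp correction. From 48 h to 72 h the differences were -0.66 and -0.81.

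Tmem173, the STING adaptor of cytosolic DNA sensing, had levels of 0.117, 0.109, 0.144 and 0.105 in the order untreated, control siRNA, Rif1 siRNA 48 h and Rif1 siRNA 72 h. Eif2ak2, the kinase PKR that is activated by double-stranded RNA and stops translation, had levels of 0.255, 0.242, 0.302 and 0.228 in that order. Each gene was highest at 48 h, by 0.40 (Tmem173) and 0.32 (Eif2ak2) over control siRNA, and at 72 h differed from it by -0.05 and -0.09. With normexp correction these came to 0.23 and 0.22 at 48 h and to -0.14 and -0.14 at 72 h. Mavs, the mitochondrial adaptor that RIG-I and MDA5 share, had levels of 1.61, 1.69, 1.67 and 1.69, which lie within 0.07 of each other on the log2 scale. Tlr3 (0.00604, 0.00400, 0.00194 and 0.00159) never stood well above background. Ifih1 had 1 probe that was well above background on no array and another, at 0.00621, 0.00714, 0.00625 and 0.00734, that was well above background at 72 h of Rif1 siRNA only, at a level under the lowest that counted as such on the control array, so no fold can be given for it.

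Ifnb1, the gene of interferon beta and the ligand of the pathway, was at the limit of detection. Its levels were 0.00865, 0.00337, 0.0109 and 0.00134, and only that at 48 h of Rif1 siRNA was well above background. That value was at least 2.01-fold higher than at 72 h, where the probe was not well above background, and it lay under the lowest detectable level of the untreated and control arrays, so it has no fold against them. The probe was detected on 1 array and did not pass the filter.

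Of the 6 transcription factors, Irf1, Irf3, Irf9 and Stat2 were detected on all arrays. Irf3, the factor that acts directly below the sensors and is present without stimulation, had levels of 5.27, 5.12, 4.60 and 4.95. Irf9, the DNA-binding part of the complex with STAT2, had levels of 0.605, 0.646, 0.558 and 0.577. Both factors differed by at most 0.21 from control siRNA at either harvest. Irf1, an activator of antigen presentation genes that interferon gamma induces, had levels of 4.37, 3.80, 2.79 and 3.28 on 1 of its 2 probes, which lay lower on both Rif1 siRNA arrays than with control siRNA (-0.45 at 48 h and -0.21 at 72 h). Its other probe (0.00491, 0.00330, 0.00331 and 0.00662) was well above background at 72 h of Rif1 siRNA only and gave no fold. Stat2, the partner of IRF9, had levels of 0.624, 0.824, 0.603 and 0.826, so the 72 h arrays were higher than the others whichever siRNA was used, by 0.40 against untreated cells and by 0.45 against 48 h. Irf2 (0.00556, 0.00774, 0.00865 and 0.00636) and Irf7 (0.00644, 0.00430, 0.00459 and 0.00526) never stood well above background. Irf7 is the factor that interferon itself induces to amplify the response.

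Among the 7 enzymes, Zc3hav1 and Apobec3 gave the largest differences. Zc3hav1 encodes ZAP, which binds CpG-rich RNA and directs its decay. Its probe at chr6:38255350-38255409 had levels of 1.22 (untreated), 1.30 (control siRNA), 1.86 (48 h of Rif1 siRNA) and 1.83 (72 h). The other probe, at chr6:38266325-38266384 read 0.0825, 0.0612, 0.104 and 0.112 in the same order. On both probes both Rif1 siRNA arrays were above both others, with differences from control siRNA of 0.52 and 0.77 at 48 h and of 0.49 and 0.87 at 72 h. With normexp correction the differences of the second probe came to 0.39 and 0.44.

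Apobec3, a cytidine deaminase that restricts retroviruses, was read by 3 probes that did not move together. The probe at chr15:79746081-79746140 had levels of 0.131, 0.0412, 0.0479 and 0.0687, a log2 difference of -1.67 for control siRNA against untreated cells and of 0.74 for Rif1 siRNA at 72 h against control siRNA. A second probe, at chr15:79738107-79738166, had levels of 4.46, 3.95, 3.72 and 3.47, and the remaining probe, at chr15:79725905-79725964, had 0.168, 0.158, 0.137 and 0.136. Their differences were -0.17 and -0.09 for control siRNA against untreated cells and -0.19 and -0.22 for Rif1 siRNA at 72 h against control siRNA, so the gene's call past 2-fold rests on 1 of 3 probes.

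Trex1, the exonuclease that clears cytosolic DNA, had levels of 1.93, 1.84, 2.10 and 2.09 and was higher by 0.19 than control siRNA at both harvests. Oas1a, which makes the second messenger of RNase L, had levels of 6.07, 5.22, 5.06 and 4.90 on its probe at chr5:121346735-121346794 and was lower in all transfected cells than in untreated ones. Samhd1, a dNTP hydrolase (3 probes), and Adar, which edits double-stranded RNA (2 probes), differed from control siRNA by no more than 0.30 in either direction. Oasl2 was well above background on the Rif1 siRNA arrays only, at 0.0181 and 0.0193, with 0.0212 on the control array not counted as above background, so it has no fold.

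**Figure D3:**
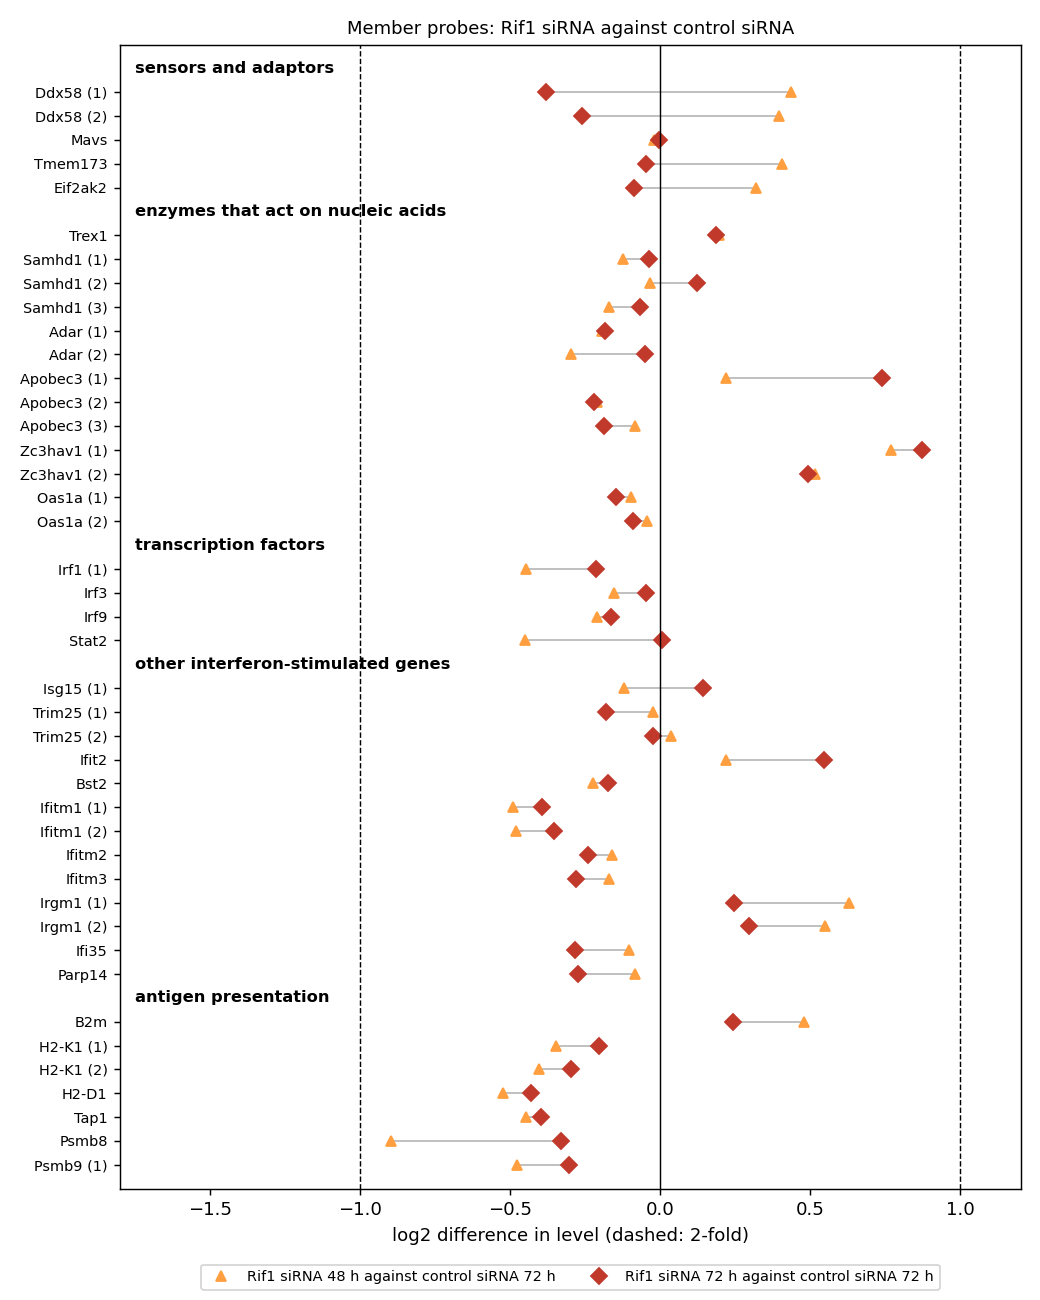
Log2 differences in level of the 42 member probes measured on both arrays of each comparison, for Rif1 siRNA at 48 h (triangles) and 72 h (diamonds) against the same control siRNA array, with dashed lines at 2-fold. No probe reaches the dashed lines. The probes of Zc3hav1, Irgm1, B2m, Trex1 and Ifit2 and 1 of the 3 Apobec3 probes lie above 0 at both harvests. With normexp correction 1 of the 2 Irgm1 probes is at -0.03 at 72 h and Ifit2 at -0.07 at 48 h. Of the 7 antigen presentation probes, 6 lie below 0 at both harvests.

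The interferon-induced transmembrane genes, whose products sit in cell membranes and block virus entry, lay lower with Rif1 siRNA at both harvests. Ifitm1 had levels of 25.2 (untreated), 25.9 (control siRNA), 18.5 (48 h of Rif1 siRNA) and 20.2 (72 h) on its probe at chr7:148155659-148155718. A second Ifitm1 probe read 23.9, 25.1, 17.9 and 19.1, although the file places it on another chromosome (chr8:13896764-13896823), and the 2 probes may share target sequence. Ifitm2 had levels of 12.3, 11.8, 10.5 and 9.98. Ifitm3, read by 10 spots, had levels of 9.64, 8.69, 7.71 and 7.14, with SDs of 0.09, 0.07, 0.04 and 0.05 on the log2 scale over the spots. On all 4 of these probes both Rif1 siRNA arrays were below both others. The same order was found for 43.3% of all 22518 probes well above background on all 4 arrays. The differences from control siRNA at 72 h were -0.35 and -0.40 for Ifitm1, -0.24 for Ifitm2 and -0.28 for Ifitm3, while those at 48 h were -0.48 and -0.49, -0.16 and -0.17. The genes are neighbours on chromosome 7 and close in sequence, so cross-reading between them cannot be told apart from a shared change.

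Irgm1, an interferon-induced GTPase of autophagy, had levels of 0.286, 0.160, 0.248 and 0.190 on its probe at chr11:48679069-48679128 and of 0.0472, 0.0312, 0.0456 and 0.0383 on the other. Control siRNA was the lowest array and untreated cells the highest on both probes, with differences of -0.84 and -0.60 between them, and Rif1 siRNA at 48 h exceeded control siRNA by 0.63 and 0.55. At 72 h the excess was 0.24 and 0.30. On the second probe the differences from control siRNA came to 0.10 at 48 h and to -0.03 at 72 h with normexp correction, so its direction at 72 h depends on the background model. Ifit2, a protein of the family that binds viral RNA, had levels of 0.0339, 0.0250, 0.0291 and 0.0365, all near the lower end of detection, and was higher by 0.54 at 72 h of Rif1 siRNA than with control siRNA but by 0.11 than in untreated cells. With normexp correction the first of these came to 0.05. Isg15, a ubiquitin-like modifier and among the most inducible genes of the pathway, had levels of 0.207, 0.175, 0.161 and 0.193 on 1 probe, and was not well above background on the other.

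Ifit1 (0.00725, 0.00489, 0.00391 and 0.00430) and Mx1 (0.00714, 0.00477, 0.00537 and 0.00450), both of which interferon induces strongly in responding cells, were well above background on no array. Rsad2, which encodes viperin, had levels of 0.00601, 0.00318, 0.00964 and 0.0104, the last pair well above background but under the lowest detectable level of the control array. Usp18, the protease that removes Isg15, had 0.00778, 0.0143, 0.00888 and 0.00901, with the same pair well above background. Ifit3 was detected at 72 h of Rif1 siRNA only (0.00511, 0.00343, 0.00169 and 0.0127), at least 1.63-fold above the 48 h array, and did not pass the filter. The remaining genes of the group were measured on all arrays. Trim25, the ubiquitin ligase that activates RIG-I, Bst2, which tethers budding virus, Ifi35 and Parp14 gave differences from control siRNA between -0.28 and 0.04 over both harvests.

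The genes of antigen presentation lay lower with Rif1 siRNA, apart from B2m. H2-K1 and H2-D1 encode class I heavy chains, B2m their light chain, Tap1 a subunit of the peptide transporter, and Psmb8 and Psmb9 subunits of the immunoproteasome. H2-K1 had levels of 2.44 (untreated), 2.61 (control siRNA), 2.05 (48 h of Rif1 siRNA) and 2.27 (72 h) on a probe read by 10 spots (SDs of 0.05, 0.06, 0.05 and 0.04 on the log2 scale), and 0.896, 0.924, 0.698 and 0.752 on a second probe. H2-D1 had levels of 0.931, 0.966, 0.671 and 0.716. Both heavy chain genes were close together on the untreated and control arrays and lower on both Rif1 siRNA arrays, with differences from control siRNA at 72 h of -0.43 for H2-D1 and of -0.21 and -0.30 for H2-K1. The heavy chain genes resemble each other in sequence, and their probes may share targets.

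Psmb9 had levels of 0.390, 0.424, 0.304 and 0.344 on its detected probe, and Psmb8 had 0.0710, 0.0691, 0.0371 and 0.0549. Tap1, over 10 spots an array and 9 at 48 h, had 0.0249, 0.0339, 0.0249 and 0.0258, the first of them not well above background, with spot SDs of 0.23, 0.22, 0.09 and 0.10 on the log2 scale. Psmb8 and Psmb9 lay lower on both Rif1 siRNA arrays than on the other arrays, and Tap1 lower than with control siRNA only. Against control siRNA, Psmb8, Psmb9 and Tap1 differed by -0.90, -0.48 and -0.45 at 48 h, then by -0.33, -0.30 and -0.40 at 72 h. B2m moved the other way. Its levels were 1.31, 1.53, 2.14 and 1.81, so both Rif1 siRNA arrays were above both others, by 0.48 at 48 h and 0.24 at 72 h against control siRNA.

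The group's 7 measured probes had a median of -0.30 at 72 h and -0.45 at 48 h, beside -0.07 and -0.07 for all probes. The antigen presentation genes that lay lower all map to chromosome 17, between 34133055 and 35403945 (mm9), the major histocompatibility region, while B2m is on chromosome 2. The 77 other probes measured in that stretch of 1270891 bases had medians of -0.14 at 72 h and -0.12 at 48 h, with 61 and 49 of 77 below 0, beside 15337 of 24308 and 14878 of 24263 of all probes, and both Rif1 siRNA arrays were below both others for 35 of 70 of them and for 5 of 5 member probes. These neighbours were counted after the member values were seen. The measured blood and immune probes described above were also lower on both Rif1 siRNA arrays than with control siRNA (medians of -0.18 at 48 h and -0.32 at 72 h), and their part in the antigen presentation values was not tested.

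Over the 41 member probes that were well above background on all 4 arrays, both Rif1 siRNA arrays lay below both others for 22 (53.7%), beside 43.3% of all 22518 such probes, and above both others for 4 (9.76%), beside 18.1%. The 4 were the 2 probes of Zc3hav1 and those of Trex1 and B2m. The 22 included all 4 Ifitm probes, 5 of antigen presentation, 3 of the 4 transcription factors and both probes of Oas1a. The log2 gap between the nearest arrays of the 2 sides ran from 0.0041 (Adar) to 0.379 (H2-D1). It was 0.0491 for Irf3, 0.0702 for Irf9 and 0.0446 for 1 Oas1a probe, where repeated spots had median SDs of 0.05 to 0.08. The members' shares are to be read against these backgrounds, which are set by the arrays as a whole.

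A different order, in which both 72 h arrays lay below the untreated and 48 h arrays, was found for 7 member probes (17.1%), beside 13.7% of all probes, and was counted after the values of Ddx58 were seen. The 7 were both probes of Ddx58 (gaps of 0.33 and 0.40), both of Irgm1 (0.39 and 0.25), and probes of Tmem173 (0.10), Eif2ak2 (0.08) and Trim25 (0.0040). Repeated spots at the levels of the Tmem173, Eif2ak2 and Trim25 probes had median SDs of 0.05 to 0.08. The reverse, both 72 h arrays above the others, was found for 5 (12.2%), beside 11.0%, of which Stat2 had the widest gap (0.40). Of the 4 detected sensor and adaptor genes, 3 (Ddx58, Tmem173 and Eif2ak2) were in the first set, and Mavs was in the reverse set with a gap of 0.02. The plot of the 72 h arrays against untreated cells and 48 h shows Ddx58, Tmem173 and Eif2ak2 to the left of 0 in both comparisons. The untreated array has no stated harvest time, so neither set shows an order in time, and time after transfection and array cannot be told apart.

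**Figure D4:**
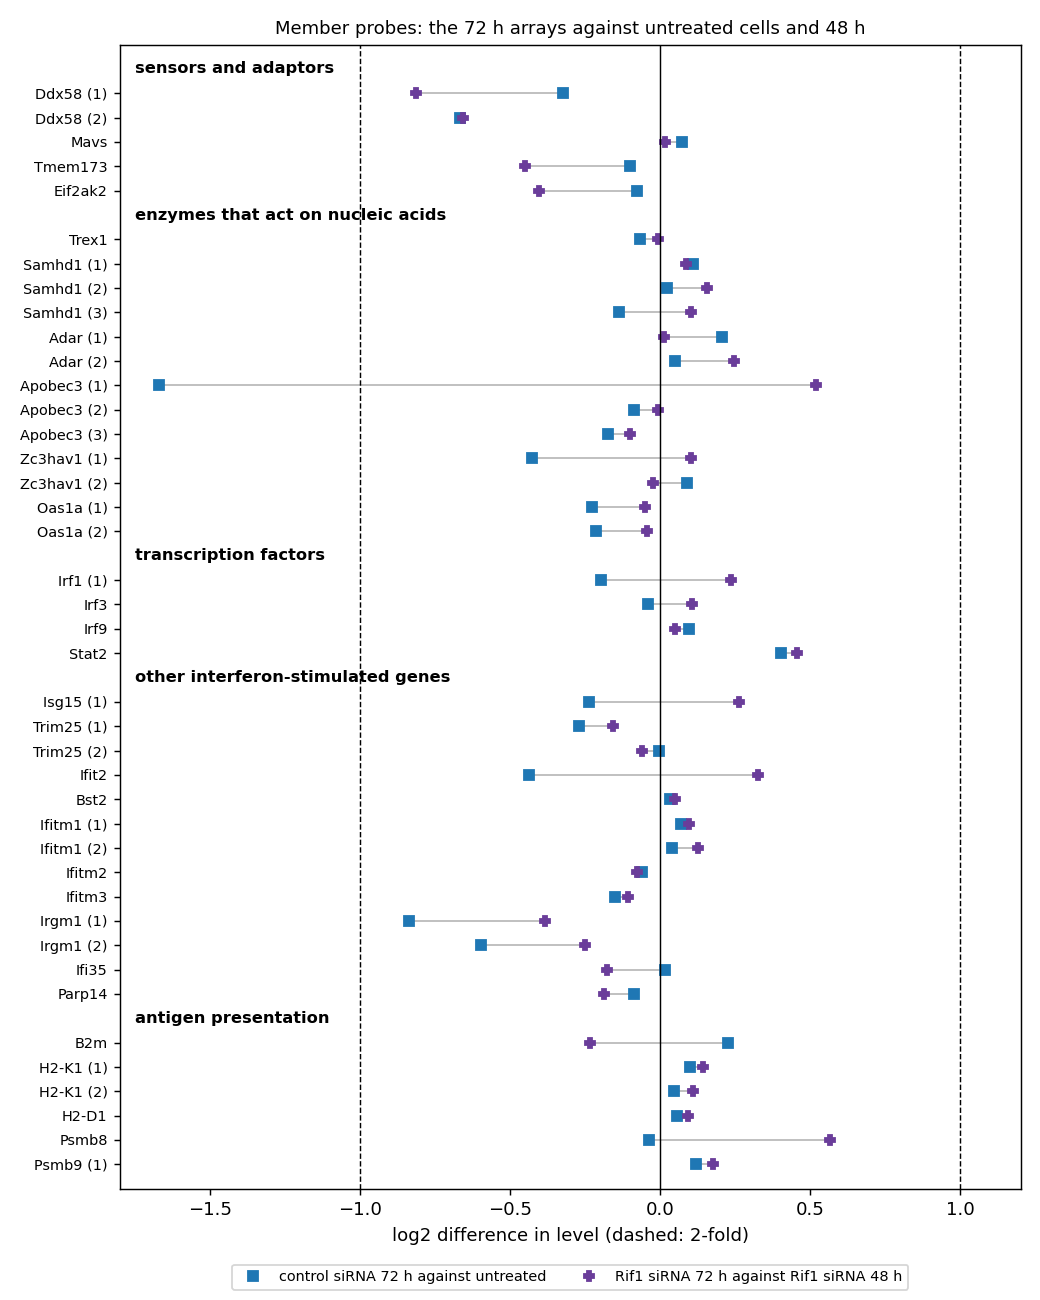
Log2 differences in level of member probes measured on all arrays compared, for control siRNA at 72 h against untreated cells (squares) and for Rif1 siRNA at 72 h against 48 h (crosses), with dashed lines at 2-fold. The 2 comparisons share no array, both probes of Ddx58 and of Irgm1 lie left of 0 in each, Stat2 lies right of 0 in each, and the only point past a dashed line is an Apobec3 probe (-1.67).

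A further 49 genes of the pathway had 71 probes, and 60 of these passed the filter. A probe well above background on all arrays was found for 39 of the 49 and on no array for 6, among them Ifna4, a gene of interferon alpha. At 72 h of Rif1 siRNA against control siRNA 0 of the 60 probes were over 2-fold higher, beside 2.82% of all probes, and 1 was lower, beside 1.00%. At 48 h the counts were again 0, beside 3.16%, and 1, beside 1.19%. The 1 was a probe of Dtx3l (-1.72 and -2.20) with levels of 0.0256, 0.109, 0.0237 and 0.0330, high on the control array alone. Another probe of the gene had 0.482, 0.468, 0.351 and 0.389, and a dim one had 0.0229, 0.0253, 0.0216 and 0.0178, the first not well above background. These also lay below control siRNA, by -0.26 and -0.51 at 72 h and by -0.41 and -0.23 at 48 h. The receptor gene Ifnar2 had levels of 1.03, 1.11, 0.953 and 0.964, and Cxcl10, a chemokine that interferon induces, had 0.240, 0.226, 0.410 and 0.348, higher by 0.86 at 48 h and 0.62 at 72 h than with control siRNA, on 1 of its 2 probes, the other being well above background on no array. Zbp1, a sensor of Z-form nucleic acid, had 0.134, 0.0898, 0.0609 and 0.0520 on 1 of its 2 probes, a difference from control siRNA of -0.79 at 72 h. Control siRNA against untreated cells gave -0.57 on this probe. At 1.5-fold, 1 of the 60 probes, that of Cxcl10, was higher at each harvest, beside 5.50% of all probes at 72 h and 6.81% at 48 h. At each harvest 2 were lower, beside 2.36% and 3.29%. The median over the measured probes of the list was -0.10 at 72 h and -0.11 at 48 h.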

How the data were processed

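RNA of 4 cultures was labelled with Cy3 and hybridised to 4 one-colour Agilent arrays of 1 slide. The authors deposited Feature Extraction files (version 11.5.1.1, default settings per the study's methods) with processed spot signals as intensity, and a value table whose entries, tested against those files, are the ratio of the processed signal to the array's 75th percentile. From the intensity, log2 of the processed signal minus log2 of the array's 75th percentile over non-control spots was computed with Python 3.11.15. Outlier spots were left out and repeated spots averaged. A probe passed the filter if it carried a detected or compromised flag on 2 or more arrays and reached the 20th percentile, limits that the study's methods give. That 1 array had to reach the percentile was chosen here, since the methods do not state the number. Where a probe was dim on 1 side of a comparison, a bound was computed from that array's lowest detected level. With 1 array per condition no test was run, and differences past 2-fold, or 1.5-fold where stated, were counted. Precision is limited by the single array of each condition.

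The 41 genes and all lists were chosen with earlier results of these data known. Values on all arrays are given for members past 2-fold, for the 10 with the largest difference at 72 h, and for sensors, ligand and transcription factors, with other members added after their values were seen. Of the 57 member probes, 50 carried an accession found in the RefSeq table. Probe positions are those of the array files (mm9). Promoters are RefSeq windows (GRCm38.p6), and siRNA strands come from the study's oligonucleotide list. Alternatives were normexp background correction (limma 3.58.1, offset 50), quantile normalization, the deposited ratios, outlier spots kept, other treatment of dim probes, 1.5-fold, 1 probe a gene, and untreated cells as the control. The calculation of differences was tested on simulated data. The study's methods mention 2 independent experiments, and 1 was analysed here.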

Additional observations from a re-analysis of the deposited data

Results flagged for a closer look

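Ddx58 stood on opposite sides of control siRNA at the 2 harvests on both of its probes, which was looked for among members with both differences past 0.20, or 3 times the SD of repeated spots. The log2 difference at 72 h minus that at 48 h was -0.81 (-0.8150) on the probe A_52_P385536 and -0.66 (-0.6567) on the probe A_55_P1965000. Both comparisons use the same control array, which drops out, so these values are the differences between the 2 Rif1 siRNA arrays given above. The control array was harvested at 72 h, so the 48 h side has no control of its own time. The difference between the harvests was not tested, since each condition has 1 array. The SD covers repeated spots of 1 array only, not separate cultures. For A_52_P385536, whose levels are under 0.1, the SD of such spots was 0.14 to 0.17, and its -0.38 at 72 h is less than 3 times that. Its difference at 48 h came to 0.18 with normexp correction, under the limit, while A_55_P1965000 kept 0.39 and -0.27. No group has 4 samples, so no sample could be set apart from its group.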

How the results depend on the processing

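No paired analysis was possible because there was only 1 array for a condition. Of 111 counts and medians recomputed under an alternative, 101 stayed within 1.5 times (counts) or within the SD of repeated spots (medians, 0.07), and 10 did not. The count over 2-fold lower at 48 h against control siRNA became 1 with quantile normalization. Dim signals taken as given raised the counts over 2-fold higher at 72 h and at 48 h from 0 to 1 each. At 1.5-fold, the counts became 2 higher at 72 h, 2 higher and 1 lower at 48 h, 4 lower with control siRNA against untreated cells, and 2 lower at 72 h against 48 h. With 1 probe a gene, the Apobec3 call with control siRNA was lost (0 lower), and 3 probes, not 5, had both 72 h arrays above the others. Of 297 recomputed differences of 18 named genes, 99 used the deposited ratios. These ratios, also among the alternatives of the 111, are the same quantity as the levels and could hardly move a value. With normexp correction 28 of 99 differences moved by the SD of repeated spots or more, and with quantile normalization 24 of 99. The sign changed for 6 of the 297, and for 2 of those past 3 SDs, both of dim probes with normexp correction. These were Irgm1 on its dimmer probe at 72 h (0.30 became -0.03) and Ifit2 at 48 h (0.22 became -0.07). The normexp correction also lowered Ifit2 at 72 h to 0.05, Zc3hav1 on its dimmer probe to 0.44 and Apobec3 with control siRNA to -1.09. The cause was not tested. Signal over background limits the dim probes, and repeated spots varied most at levels under 0.1.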
